A study of Mus musculus with 7 samples.

Results

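Olfr1507, Olfr1508, Olfr1509, Olfr1510 and Olfr1511 are 5 neighbouring olfactory receptor genes on mouse chromosome 14, at the end of a receptor cluster that is served by a long-range regulatory element known as the H enhancer. They were chosen by name, as the receptor genes next to that enhancer, out of 50600 genes in the count table and 1418 genes with an Olfr symbol. The choice was made with the contrast between Amigo1neo/neo and Amigo1-/- libraries already known, so the values of the 5 genes in that contrast are given below as a description. Counts of calls among them stand beside the same count over all genes, and nothing is read from those counts.

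The libraries were made from whole olfactory epithelium, which lines the upper nose and holds its sensory neurons, of mice at postnatal day 7. There were 3 libraries from Amigo1neo/neo mice (neo), in which a neomycin selection cassette takes the place of the Amigo1 coding region, 3 from Amigo1-/- mice (KO) and 1 from an Amigo1+/+ mouse (WT). Neo and KO mice thus both lack an intact Amigo1 gene, and Amigo1 encodes a cell adhesion protein of neurons. The series asked whether the cassette alters expression in this tissue.

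In the mouse, each mature olfactory sensory neuron transcribes 1 allele of 1 receptor gene, and the protein sits in the cilia, where it binds odorants. Which gene is transcribed depends on the zone of the epithelium, on homeodomain and Ebf proteins such as Lhx2 and Ebf1, and on enhancers that gather around the active gene. The H enhancer lies upstream of Olfr1507, the first gene of its cluster, and its deletion in mice is known to silence the receptor genes nearest to it. In whole tissue, the level of a receptor gene reflects how many neurons chose it and how much of its RNA each holds. Fewer such neurons and less RNA per neuron cannot be told apart in these bulk libraries.

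On GRCm38, the gene set spanned chromosome 14, bases 52389794 to 52495749, a length of 106 kb. Olfr1507 (ENSMUSG00000059887.7, 52488791 to 52495749, minus strand) stands at the enhancer end. The start site of Olfr1508 (ENSMUSG00000057564.6, 52458829 to 52467495, minus strand) was 28.3 kb from that of Olfr1507. That of Olfr1509 (ENSMUSG00000035626.4, 52442990 to 52452574, plus strand, the only one of the 5 on that strand) was 52.8 kb away. Olfr1510 (ENSMUSG00000063106.6, 52409131 to 52414373, minus strand) followed at 81.4 kb and Olfr1511 (ENSMUSG00000063867.2, 52389794 to 52397379, minus strand) at 98.4 kb. RefSeq synonyms put Olfr1507, Olfr1508 and Olfr1509 in family MOR244, under the older names Mor28, Mor10 and Mor83, and Olfr1510 and Olfr1511 in family MOR223.

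The first 90 coding bases of each gene are shown because near-identical copies limit what short reads can assign. They are from GENCODE vM21 transcripts on GRCm38 and are printed 5′ to 3′ on the coding strand. Capitals mark bases of Olfr1508 and Olfr1509 that differ from Olfr1507, and bases of Olfr1511 that differ from Olfr1510, position by position. The genomic spans are chr14:52490873-52490962 for Olfr1507, chr14:52463918-52464007 for Olfr1508, chr14:52450415-52450504 for Olfr1509, chr14:52410781-52410870 for Olfr1510 and chr14:52390682-52390771 for Olfr1511.
Olfr1507: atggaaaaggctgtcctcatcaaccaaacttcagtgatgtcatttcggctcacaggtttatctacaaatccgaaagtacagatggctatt
Olfr1508: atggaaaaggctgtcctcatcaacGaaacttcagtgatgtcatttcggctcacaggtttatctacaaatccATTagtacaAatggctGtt
Olfr1509: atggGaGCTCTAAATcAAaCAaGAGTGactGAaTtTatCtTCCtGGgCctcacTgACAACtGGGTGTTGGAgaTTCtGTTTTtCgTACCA
Olfr1510: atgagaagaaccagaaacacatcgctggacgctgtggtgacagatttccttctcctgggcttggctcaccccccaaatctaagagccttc
Olfr1511: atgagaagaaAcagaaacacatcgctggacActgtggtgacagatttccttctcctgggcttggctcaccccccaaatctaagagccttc
Olfr1508 differed from Olfr1507 at 6 of these positions, Olfr1509 at 60, and Olfr1511 from Olfr1510 at 2. Over whole aligned coding sequences, Olfr1507 and Olfr1508 were 93.0% identical and shared an unbroken run of 143 bases. Olfr1510 and Olfr1511 were 97.3% identical with a run of 274 bases. Olfr1509 was 65.2% identical to Olfr1507 and 67.6% to Olfr1508. Every 50-base window of the Olfr1509 transcript with the highest TPM was found in no other gene, against 96.8% of the windows of the corresponding Olfr1508 transcript, 93.0% of Olfr1507, 74.1% of Olfr1510 and 65.5% of Olfr1511. Reads with several matches are not in the gene counts, so Olfr1510 and Olfr1511 are undercounted to an unknown extent and their values are uncertain, in TPM as well.

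One promoter window is shown because the Olfr1508 entry of the RefSeq table (GRCm38.p6) lies at the first exon that GENCODE gives the gene. It covers chr14:52467496-52467711, the 216 bases before the start site, printed on the minus strand with 1 match to the homeodomain core TAATNA, read on either strand, in capitals.
Olfr1508 promoter: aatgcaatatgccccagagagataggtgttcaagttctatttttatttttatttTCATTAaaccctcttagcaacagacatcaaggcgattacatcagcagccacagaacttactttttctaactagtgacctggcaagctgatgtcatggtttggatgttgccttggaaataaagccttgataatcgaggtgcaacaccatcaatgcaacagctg
The match begins 162 bases before the start site. TAATNA occurred in the first 216 bases of 22.3% of all 32851 promoter entries and of 59.8% of the 948 entries of Olfr genes. This stretch was set by the Olfr1508 start site and leaves out the end of each entry. The shares that follow are for the same stretch. The Olf1/Ebf core CCCNNGGG (10.3% of all promoters, 2.64% of Olfr promoters) and the TATA box TATAAA (9.80% and 36.4%) were not in this window on either strand. The entries of Olfr1509, Olfr1510 and Olfr1511 begin at the coding exon instead, and Olfr1507 is named only.

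Gene counts totalled 14879415 to 21063122 per neo library, 17008840 to 18697771 per KO library and 21343058 in WT. Olfr genes took 0.327 to 0.483% of gene counts. The check of the targeted gene fitted the labels, with 11, 5 and 1 Amigo1 counts in neo replicates 1 to 3 and 0, 8 and 16 in KO replicates 1 to 3, against 744 in WT. Omp, the defining marker of mature olfactory neurons, was at 863 to 1163 CPM in neo, 784 to 852 CPM in KO and 965 CPM in WT, so the labelled tissue was present. Xist was high (1145 CPM in neo replicate 1 and 644 CPM in WT) and the Y-linked Ddx3y was at or near 0 in those 2 libraries, while the other 5 had 60.7 to 84.6 CPM of Ddx3y. Part of each sample name in the labels is common to KO and WT and another in neo, so whatever it stands for cannot be told apart from the neo genotype. Levels below are CPM (counts scaled to library size after TMM) or the authors' TPM (transcript abundance scaled to library and to length).

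Olfr1507, Olfr1508 and Olfr1509, the genes nearest to the H enhancer, had lower mean levels in neo than in KO libraries, while Olfr1510 and Olfr1511 did not. The neo mean was 0.286 of the KO mean in CPM for Olfr1507, 0.329 for Olfr1508 and 0.462 for Olfr1509. It was 1.24 times the KO mean for Olfr1510 and 1.53 times for Olfr1511. The KO mean was 1.01 times the WT level for Olfr1507, 1.17 times for Olfr1508 and 1.05 times for Olfr1509.

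Olfr1507 (Mor28) is the receptor next to the enhancer and among the best studied of the mouse. It had 6.73, 14.9 and 5.92 CPM in neo replicates 1 to 3, 13.8, 28.8 and 53.8 CPM in KO replicates 1 to 3, and 31.8 CPM in WT. The groups overlapped, since neo replicate 2 lay above KO replicate 1, and KO replicate 3 was 3.90 times KO replicate 1. All 3 neo libraries lay below WT, as did 2 of the 3 KO libraries. The means were 9.20 ± 5.0 CPM in neo and 32.1 ± 20.2 CPM in KO (SD, n = 3 each). The spread of log2 CPM among KO libraries (SD 0.98) was the 5th widest of 1040 Olfr genes tested.

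Olfr1508 (Mor10), the close copy of Olfr1507, had 5.71, 7.65 and 9.11 CPM in neo replicates 1 to 3, 16.6, 31.6 and 20.1 CPM in KO replicates 1 to 3, and 19.4 CPM in WT. Neo and KO did not overlap, and every neo library lay below WT. The raw counts were nearly flat among neo libraries (134, 128 and 137), against 271, 589 and 363 in KO libraries. The means were 7.49 ± 1.71 CPM in neo and 22.8 ± 7.84 CPM in KO (SD, n = 3 each).

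Olfr1509 (Mor83), whose sequence shares no 50-base window with another gene, had 2.39, 3.11 and 2.53 CPM in neo replicates 1 to 3, 4.60, 7.45 and 5.31 CPM in KO replicates 1 to 3, and 5.52 CPM in WT. In CPM the groups did not overlap and every neo library lay below WT. In TPM they overlapped, at 2.48, 3.02 and 2.39 in neo and 2.94, 7.21 and 3.94 in KO, because KO replicate 1 lay just below neo replicate 2. The mean was 2.67 ± 0.38 CPM in neo and 5.79 ± 1.49 CPM in KO (SD, n = 3 each).

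Olfr1510, the first MOR223 receptor along the chromosome, had 3.32, 2.87 and 2.79 CPM in neo replicates 1 to 3, 3.12, 1.61 and 2.54 CPM in KO replicates 1 to 3, and 2.94 CPM in WT. Olfr1511, its near-identical neighbour, had 2.77, 4.48 and 1.80 CPM in neo replicates 1 to 3, 1.59, 1.39 and 2.93 CPM in KO replicates 1 to 3, and 2.76 CPM in WT. For both genes neo and KO overlapped, and the WT value lay within the range of the neo libraries. Counts were low, 27 to 78 per neo library and 26 to 53 per KO library for the pair, so that counting error alone is wide.

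**Figure D1:**
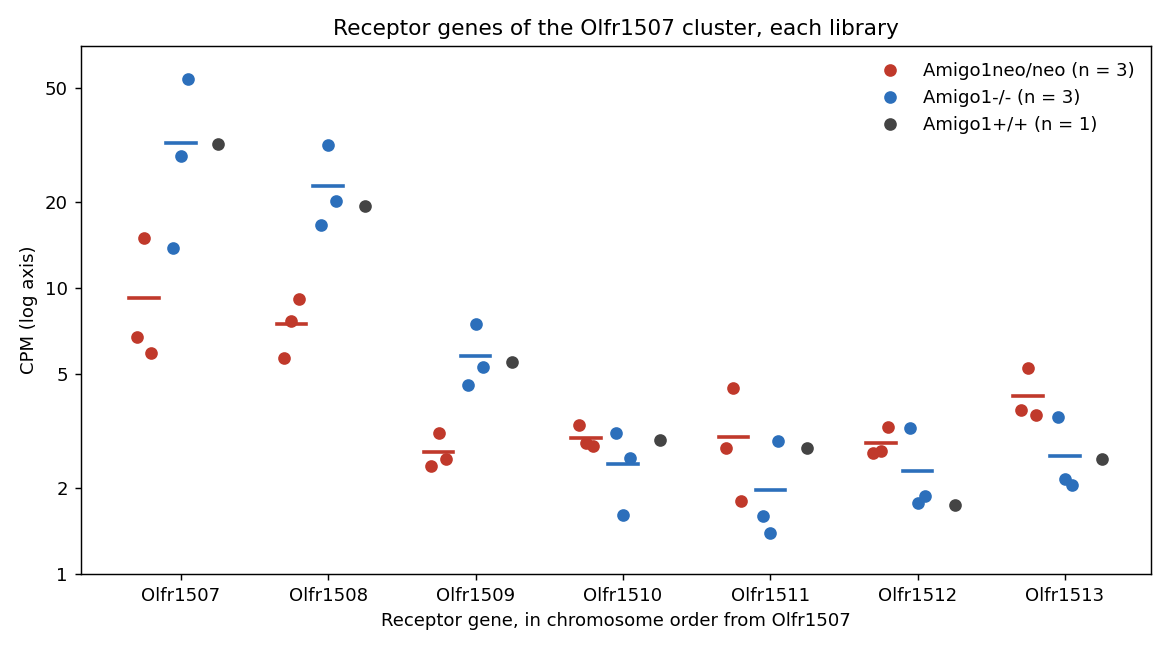
CPM (log axis) of 7 receptor genes in chromosome order from Olfr1507, with neo, KO and WT from left to right for each gene; points are libraries and bars are means of 3 libraries. Neo points lie below KO for Olfr1508 and Olfr1509 with no overlap, overlap KO by 1 library for Olfr1507, and overlap KO for Olfr1510 to Olfr1512.

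With edgeR's quasi-likelihood fit, the log2 difference of neo over KO was -1.81 (SE 0.63) for Olfr1507, -1.61 (SE 0.27) for Olfr1508 and -1.11 (SE 0.25) for Olfr1509. It was 0.31 (SE 0.28) for Olfr1510 and 0.61 (SE 0.40) for Olfr1511. The differences went up with each gene away from the enhancer end, but the order within the first 3 genes and within the last 2 depends on single libraries. Without KO replicate 3, Olfr1507 was at -1.22 and Olfr1508 at -1.69, and without neo replicate 3 they were at -1.58 and -1.77. Olfr1511 lay below Olfr1510 without neo replicate 2 (0.23 and 0.35) and without KO replicate 1 (0.48 and 0.53). In gene TPM tested by limma, with 0.1 added before the log, Olfr1511 also lay below Olfr1510 (0.43 and 0.58). The widest step between neighbours lay between Olfr1509 and Olfr1510 in each of these settings. After adjustment, 0 of the 5 were called by edgeR, where 0.0170% of 17638 genes were called in either direction. At an unadjusted p of 0.05, 3 of the 5 were lower in neo, against 4.72% of all genes, and 0 were higher, against 4.59%. Neo libraries lay wholly below KO for 2 of the 5 genes in CPM, against 7.98% of all genes tested. They lay wholly above KO for 0 of the 5, against 7.59% of all genes. Since this contrast was known when the genes were chosen, nothing is read from these shares.

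DESeq2 called 2 of the 5, Olfr1508 and Olfr1509, lower in neo, where it called 0.323% of 18597 genes lower. The authors' deposited table, whose fold changes run as KO over neo, gave a log2 fold change of 1.81 (SE 0.67) for Olfr1507, 1.61 (SE 0.27) for Olfr1508 and 1.12 (SE 0.32) for Olfr1509. Of the 5, Olfr1508 alone was called lower in neo in the authors' deposited table, where 0.288% of 18429 genes were. These calls are on the contrast with which the genes were chosen and are no support for it. The tools gave almost the same fold changes and differed in their calls.

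Leaving out 1 library at a time kept the sign of all 5 differences. Olfr1507 moved most, to -1.22 without KO replicate 3 and -2.33 without neo replicate 2. Olfr1508 stayed within -1.79 to -1.29 and Olfr1509 within -1.25 to -0.88. Olfr1511 ranged from 0.23 without neo replicate 2 to 1.02 without KO replicate 3, and Olfr1510 from 0.10 to 0.53. Without neo replicate 1, the neo library with Xist, the differences were -1.61 for Olfr1507, -1.44 for Olfr1508 and -1.03 for Olfr1509.

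Against WT, the log2 difference of KO was 0.02 (SE 0.85) for Olfr1507, 0.23 (SE 0.37) for Olfr1508, 0.07 (SE 0.33) for Olfr1509, -0.28 (SE 0.39) for Olfr1510 and -0.48 (SE 0.55) for Olfr1511. None of the 5 passed edgeR's test, with an adjusted p of 1 each, where 0.00523% of 19123 genes passed. At an unadjusted p of 0.05, 0 of the 5 passed by edgeR and by DESeq2, against 0.727% of genes by edgeR. The WT library has no replicate and is assumed to vary like the others, and an SE of 0.33 or more leaves room for sizeable differences in either direction. WT had high Xist and every KO library had Ddx3y, so KO over WT cannot be told apart from a difference in sex. The sign of the first 3 values turned under other settings, as listed at the end.

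The log2 difference of neo over WT was -1.79 (SE 0.81) for Olfr1507, -1.38 (SE 0.35) for Olfr1508, -1.05 (SE 0.32) for Olfr1509, 0.03 (SE 0.39) for Olfr1510 and 0.13 (SE 0.56) for Olfr1511. After edgeR's adjustment 0 of the 5 passed, where 0.0105% of 19123 genes did, and 0 passed by DESeq2. Unadjusted, Olfr1508 and Olfr1509 were lower in neo, 2 of the 5, against 1.72% of genes. This comparison shares its neo libraries with neo over KO and its WT library with KO over WT, so its values are set beside theirs and are no separate evidence.

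**Figure D2:**
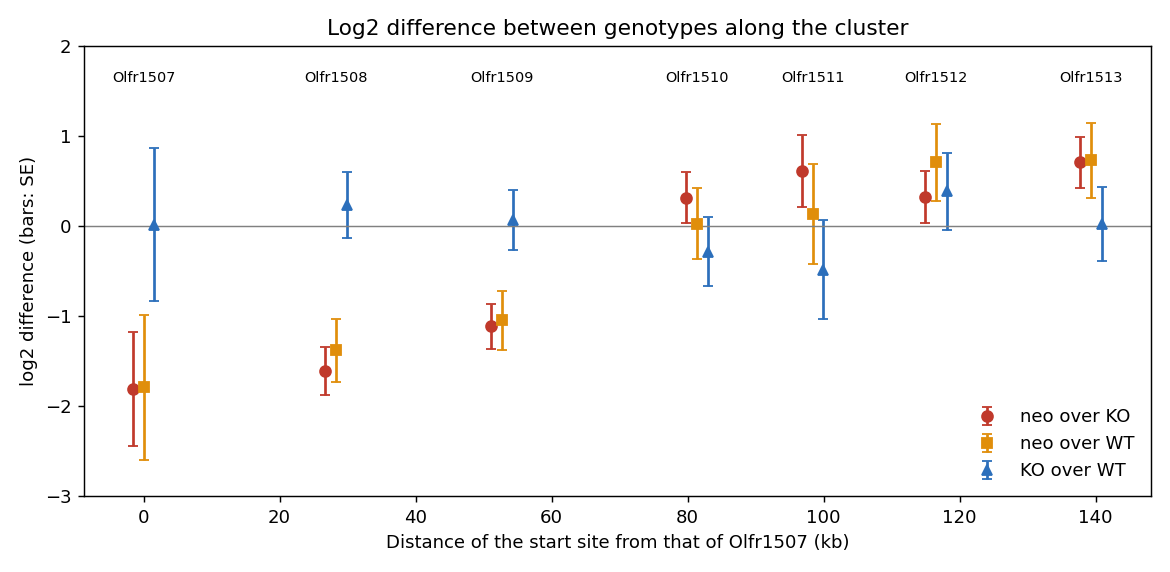
Log2 difference between genotypes (bars are 1 SE) against the distance of each start site from that of Olfr1507 in kb, for neo over KO, neo over WT and KO over WT, with the 3 series set slightly apart sideways. Both neo contrasts are below 0 for the first 3 genes and at or above 0 from Olfr1510 at 81.4 kb on, while KO over WT lies within 1 SE of 0 for all 7 genes.

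Within the cluster, the order of levels by TPM differed between genotypes. In all 7 libraries Olfr1507 was the highest of the 5. In every KO library and in WT, Olfr1508 came next and Olfr1509 after it, above Olfr1510 and Olfr1511. In every neo library Olfr1511 came next after Olfr1507, and Olfr1508 was the lowest. This order holds per length only: in CPM, Olfr1508 lay above Olfr1509, Olfr1510 and Olfr1511 in every neo library, and its transcript of 5791 bases is the longest of the 5. Olfr1508 had 1.61, 1.73 and 2.14 TPM in neo replicates 1 to 3, 3.61, 7.52 and 4.62 TPM in KO replicates 1 to 3, and 5.03 TPM in WT. Olfr1511 had 3.86, 4.02 and 2.92 TPM in neo, 2.24, 2.40 and 3.38 TPM in KO, and 3.45 TPM in WT, so that neo and KO overlapped. Olfr1509 and Olfr1510 changed places among neo libraries, and Olfr1510 and Olfr1511 among KO libraries, so these neighbours are not ordered beyond their spread.

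Among all 1418 Olfr genes ranked by mean TPM, Olfr1507 was 49th in neo, 2nd in KO and 2nd in WT. Olfr1508 was 515th in neo, 35th in KO and 55th in WT. Olfr1509 was 300th in neo, 44th in KO and 57th in WT. Olfr1510 was 257th in neo, 358th in KO and 280th in WT, and Olfr1511 was 166th in neo, 194th in KO and 155th in WT. By CPM, which does not correct for transcript length, Olfr1507 was 66th in neo, 2nd in KO and 2nd in WT, Olfr1508 111th in neo, 6th in KO and 7th in WT, and Olfr1509 144th in KO and 188th in WT and farther down in neo. On either scale the 3 genes nearest the enhancer had a lower place in neo than in KO or WT, while how far each moved depended on the scale.

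The share of all Olfr gene counts that fell on the 5 genes was 0.482% (95% Wilson interval 0.442 to 0.527), 0.870% (0.801 to 0.945) and 0.569% (0.511 to 0.633) in neo replicates 1 to 3. It was 1.03% (0.954 to 1.11), 1.96% (1.86 to 2.07) and 2.51% (2.38 to 2.63) in KO replicates 1 to 3, and 1.62% (1.53 to 1.70) in WT. No neo interval reached a KO or the WT interval, and the intervals cover counting error only. The mean share was 0.640 ± 0.204% in neo and 1.83 ± 0.75% in KO (SD, n = 3 each), a ratio of 0.349. Olfr1507 to Olfr1509 together held 0.490 ± 0.171% in neo, 1.71 ± 0.73% in KO and 1.47% in WT. Olfr1510 and Olfr1511 together held 0.151 ± 0.039% in neo, 0.123 ± 0.039% in KO and 0.148% in WT. Per 1000 counts of 14 mature olfactory neuron markers, the 5 genes had 4.88 ± 1.05 counts in neo, 14.7 ± 5.95 in KO and 12.6 in WT.

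**Figure D3:**
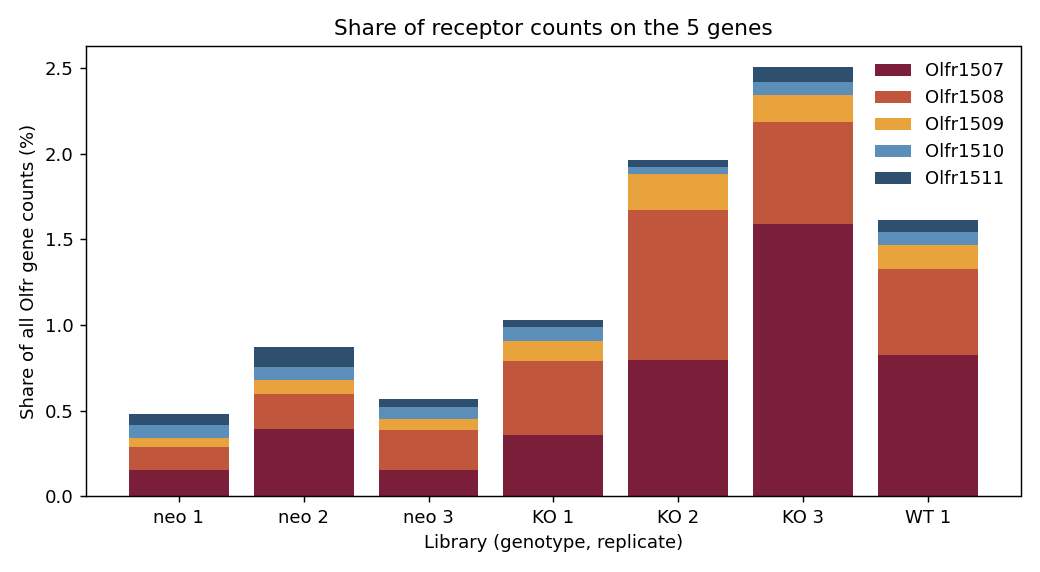
Share of all Olfr gene counts (%) on each of the 5 genes, stacked, per library, with neo, KO and WT from left to right. The stacks reach 0.482 to 0.870% in neo, 1.03 to 2.51% in KO and 1.62% in WT, and most of the difference lies in Olfr1507 and Olfr1508.

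A ratio taken inside each library does not depend on scaling between libraries. The summed counts of Olfr1507, Olfr1508 and Olfr1509 were 2.43, 3.50 and 3.83 times those of Olfr1510 and Olfr1511 in neo replicates 1 to 3, 7.42, 22.6 and 14.5 times in KO replicates 1 to 3, and 9.94 times in WT. In TPM the ratio was 1.14, 2.06 and 1.57 in neo, 3.00, 9.43 and 7.24 in KO, and 4.93 in WT. Neo and KO did not overlap in either unit, and the WT value lay among those of KO. This split of the 5 genes follows their differences in the contrast known at the choice, so the separation is no support for it. The lower part of the ratio rests on 56 to 143 summed counts per library of Olfr1510 and Olfr1511, whose values are uncertain.

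Set against other receptors, the 3 genes nearest the enhancer lay at the low end of neo over KO. Of 1040 Olfr genes tested, 758 had a positive difference and the median was 0.25, against -0.0022 for all 17638 genes. Olfr1507 ranked 5th, Olfr1508 8th and Olfr1509 18th from the lowest, while Olfr1510 ranked 612th and Olfr1511 907th. The other 34 Olfr genes tested on chromosome 14 had a median of 0.33 and ranged from -0.81 to 0.91, so Olfr1507, Olfr1508 and Olfr1509 each lay below all of them. The low end was not peculiar to chromosome 14: of the 12 Olfr genes with the lowest differences, 7 were on chromosome 2 and 2 on chromosome 14. Of all 1418 Olfr genes, 42 were on chromosome 14, while the share of chromosome 2 is not given here, so these counts are not weighed. Those on chromosome 2 were Olfr1192-ps1 (-2.22), Olfr1205 (-1.99), Olfr1280 (-1.97), Olfr1276 (-1.67), Olfr1281 (-1.64), Olfr1278 (-1.48) and Olfr1286 (-1.45). The median of the 5 genes was -1.11. Because neo over KO was known at the choice of the genes, their ranks and places here are a description and no support for it.

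**Figure D4:**
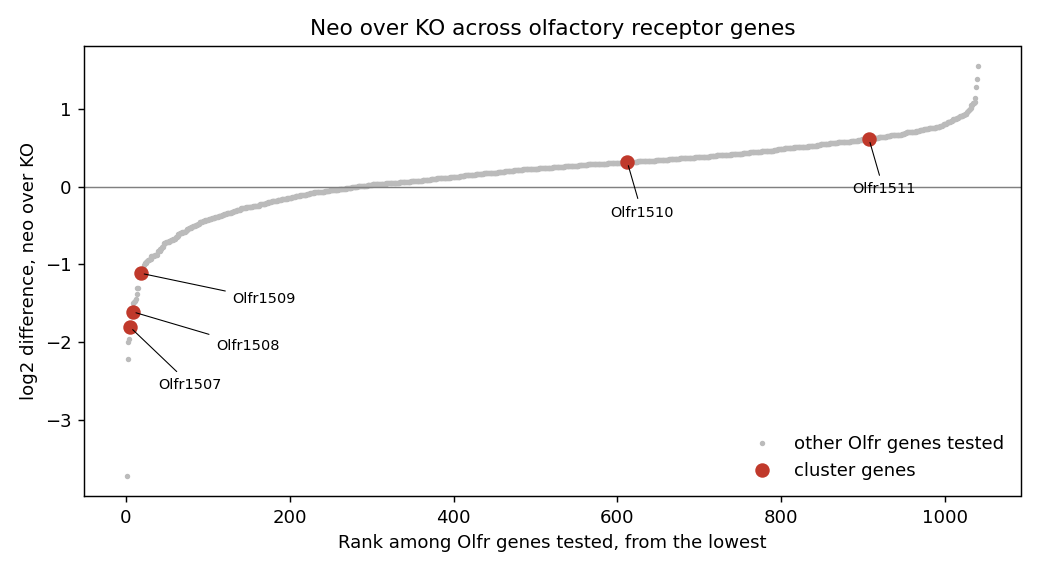
Log2 difference of neo over KO for each of 1040 Olfr genes, in rank order from the lowest, with the 5 cluster genes as large points. Olfr1507, Olfr1508 and Olfr1509 lie at ranks 5, 8 and 18, and Olfr1510 and Olfr1511 lie among the genes above 0.

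Farther along the same cluster, Olfr1512 (117 kb from the Olfr1507 start site) had a log2 difference of neo over KO of 0.32 (SE 0.29) and Olfr1513 (139 kb) of 0.71 (SE 0.29). Olfr1513 had 3.75, 5.26 and 3.59 CPM in neo replicates 1 to 3, against 3.55, 2.14 and 2.05 CPM in KO replicates 1 to 3. It did not overlap between the groups, yet its adjusted p by edgeR was 0.515. Olfr221, a receptor gene 453 kb away, had 0.88 (SE 0.26, edgeR adjusted p = 0.471). Its groups did not overlap in CPM, with neo higher, but overlapped in TPM. Unadjusted edgeR p-values were 0.30 for Olfr1512, 0.036 for Olfr1513 and 0.0089 for Olfr221, where 4.59% of all genes were higher at 0.05. Of the 14 genes within 500 kb that are no receptor genes, 0 passed edgeR's test, against 0.0170% of all genes. At an unadjusted edgeR p of 0.05, where 4.72% of all genes were lower and 4.59% higher, 0 of the 14 were either. The nearest of them, Sall2, a zinc finger transcription factor gene, had 18.3 ± 1.45 CPM in neo and 15.3 ± 0.81 CPM in KO (SD, n = 3 each; edgeR adjusted p = 0.553). On the enhancer side, the nearest tested gene that is no receptor, the T cell receptor constant gene Trdc, lay 1647 kb away (log2 difference 1.22, edgeR adjusted p = 0.541).

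Most of the estimated TPM of the 5 genes together lay in spliced transcripts, but that of Olfr1511 did not in every library. Of 17 annotated transcripts of the 5 genes, 10 passed the filter on low TPM. The 2-exon Olfr1507-203 had 3.61, 6.23 and 2.5 TPM in neo replicates 1 to 3, 5.61, 11.6 and 24.5 TPM in KO replicates 1 to 3, and 15.1 TPM in WT. It held 57.6 to 82.6% of the TPM of its gene. The 2-exon Olfr1508-202 had 1.61, 1.69 and 2.14 TPM in neo, 3.61, 7.25 and 4.62 TPM in KO, and 4.68 TPM in WT, and held 93.0% or more of its gene in every library. The 3-exon Olfr1509-202 had 1.32, 1.16 and 1.21 TPM in neo, 1.99, 2.66 and 2.09 TPM in KO, and 2.80 TPM in WT. For Olfr1508-202 and Olfr1509-202 the groups did not overlap, while for Olfr1507-203 neo replicate 2 lay above KO replicate 1.

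On the log2(TPM + 0.1) scale, the difference of neo over KO was -1.58 (SE 0.58) for Olfr1507-203, -1.41 (SE 0.34) for Olfr1508-202 and -0.81 (SE 0.34) for Olfr1509-202. A second form of Olfr1509, Olfr1509-205, overlapped between the groups, at 1.16, 1.42 and 0.75 TPM in neo and 0.50, 3.89 and 0.96 TPM in KO. The 2-exon Olfr1510-202 had a difference of 0.49 (SE 0.38). The 2 forms of Olfr1511 traded places between libraries of 1 genotype: Olfr1511-202 held 86.0, 100 and 31.8% of its gene in neo replicates 1 to 3 and 18.8, 45.8 and 98.2% in KO replicates 1 to 3. Single-exon models of Olfr1507, Olfr1509 and Olfr1510 were at 0 in 5 or 6 of the 7 libraries. The single-exon Olfr1511-201 was at 0 in 1 library only. It lay above Olfr1511-202 in neo replicate 3 (1.99 and 0.93 TPM), KO replicate 1 (1.82 and 0.42 TPM) and KO replicate 2 (1.30 and 1.10 TPM).

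By the root mean square difference of log2 CPM over the 7 libraries, each gene centred on its own mean, the tested gene most like Olfr1508 was Olfr1369-ps1 on chromosome 13 (0.16), followed by Olfr1228 (0.17) and Olfr1280 (0.23), both on chromosome 2. Olfr1509 was most like Olfr1186 on chromosome 2 (0.15) and Olfr183 on chromosome 16 (0.15), then Chrna5 on chromosome 9 (0.18), a nicotinic receptor subunit gene. Olfr1508 and Olfr1509 differed from each other by 0.30. Of 19123 genes, Olfr1509 was 10th for Olfr1508, and Olfr1508 was 49th for Olfr1509. Olfr1507 had no gene as near: Pla2g4f on chromosome 2, a phospholipase gene, differed by 0.37, Bglap on chromosome 3 by 0.45 and Olfr1192-ps1 on chromosome 2 by 0.48. Its distance was 0.68 to Olfr1508, 0.67 to Olfr1509 and 1.26 to Olfr1510. Olfr1508 was 52nd and Olfr1509 49th for Olfr1507, while Olfr1507 was 911th for Olfr1508 and 13601st for Olfr1509. Distances were not scaled to each gene's own spread, so they partly reflect it. That spread, as root mean square from the gene's own mean, was 1.09 for Olfr1507 and 0.31 for Olfr1510. Olfr1510 was most like Smtnl2 (0.07), Olfr27 (0.08) and Gm37580 (0.11), and Olfr1511 most like Sh2d1b1 (0.15), Nrl (0.18) and Gpx5 (0.20).

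Genes known to act in receptor choice were taken as a list of 15, among them Lhx2, Ldb1 and Ebf1, whose products bind receptor enhancers. Of the 15, 0 passed edgeR's adjusted test in neo over KO, where 0.0170% of all 17638 genes passed. That count alone does not show them unchanged. At an unadjusted edgeR p of 0.05, 0 were lower in neo and 1 was higher, against 4.72% and 4.59% of all genes. That gene, Ebf4, a member of the Ebf family, had 77.6 ± 8.34 CPM in neo and 59.5 ± 11.1 CPM in KO (SD, n = 3 each; edgeR adjusted p = 0.502). The next by p, Lbr, a nuclear envelope protein gene, had 58.6 ± 2.73 CPM in neo and 51.1 ± 1.54 CPM in KO (SD, n = 3 each; edgeR adjusted p = 0.544). The median difference of the 15 was 0.08, against -0.0022 for all genes.

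Of the cluster's receptors, Olfr1507, Olfr1508 and Olfr1509 are known from the ventral part of the epithelium. The same is not claimed for Olfr1510 and Olfr1511, and the zone of each gene was not measured here. Position in the cluster therefore cannot be told apart from zone in these libraries. Of 5 ventral zone markers, 3 had a negative and 2 a positive difference of neo over KO (median -0.09). Of these 5, 0 passed the adjusted edgeR test, against 0.0170% of all genes. At an unadjusted edgeR p of 0.05, 0 were lower and 0 higher, against 4.72% and 4.59% of all genes. Nrp2, an axon guidance receptor gene of ventral neurons, had 175 ± 30.0 CPM in neo and 210 ± 13.7 CPM in KO (SD, n = 3 each; edgeR adjusted p = 0.571). Nfia, the next ventral marker by p, went the other way, with 127 ± 17.3 CPM in neo and 112 ± 18.6 CPM in KO (SD, n = 3 each; edgeR adjusted p = 0.718). Of 4 dorsal zone markers, 2 had a negative and 2 a positive difference of neo over KO (median 0.18). Of these 4, 0 passed the adjusted test. At an unadjusted edgeR p of 0.05, 0 were lower in neo and 2 were higher, against 4.72% and 4.59% of all genes. Acsm4 had 261 ± 26.1 CPM in neo and 187 ± 43.0 CPM in KO (edgeR adjusted p = 0.487, SD, n = 3 each), and Nqo1 had 152 ± 18.8 CPM in neo and 112 ± 22.5 CPM in KO (edgeR adjusted p = 0.498, SD, n = 3 each). Summed dorsal markers spanned 529 to 576 CPM in neo, 386 to 528 CPM in KO and 456 CPM in WT, and summed ventral markers 759 to 853 CPM in neo, 758 to 930 CPM in KO and 792 CPM in WT. The part of zone in the values of the receptor cluster was not tested.

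Cell markers moved between the groups as well. The 14 mature olfactory neuron markers, such as Omp, all had a positive difference of neo over KO (median 0.19), with sums of 5012 to 5441 CPM in neo, 4269 to 4858 CPM in KO and 4965 CPM in WT. The 3 genes nearest the enhancer had negative differences, and the ratio of the 5 genes to these markers is given above. The part of neuron content in the values of the receptor cluster was not tested. The 7 bone-forming markers, such as Col1a1 and Bglap, all had a negative difference (median -1.09), with sums of 1782 to 3916 CPM in neo, 5301.5 to 9049.8 CPM in KO and 5639 CPM in WT. None of either list passed the adjusted edgeR test, which 0.0170% of all genes passed. At an unadjusted edgeR p of 0.05, 3 mature markers were higher and 6 bone-forming markers lower, against 4.59% and 4.72% of all genes. By library, the bone-forming sum was 3916, 3259 and 1782 CPM in neo replicates 1 to 3 and 6555, 5301.5 and 9049.8 CPM in KO replicates 1 to 3. Both this sum and Olfr1507 were highest in KO replicate 3 and lowest in neo replicate 3. Replicates 1 and 2 of each genotype stood in the other order for Olfr1507 than for the sum. Olfr1508 was highest in KO replicate 2 and lowest in neo replicate 1. Bglap, 1 of the 7 markers, was the 2nd most like Olfr1507 by the likeness given above (0.45). With 3 libraries per genotype, nothing is read from these orders. The part of the bone-forming RNA in the values of the receptor cluster was not tested. Of the remaining lists by the same edgeR test, 6 of 8 immature neuron markers had a negative difference, and 6 of 7 globose basal, 4 of 4 horizontal basal, 5 of 5 sustentacular and 2 of 4 respiratory ciliated markers had a positive one. In each of these lists 0 passed the adjusted edgeR test, and 0 to 2 reached an unadjusted p of 0.05. Over all genes, 0.0170% passed the adjusted test, and 4.72% were lower and 4.59% higher unadjusted. The vomeronasal channel gene Trpc2 was below 0.1 CPM in every library. Vmn2r1, the other vomeronasal marker listed, was detected, with 1.53 ± 1.08 CPM in neo, 1.47 ± 2.09 CPM in KO (SD, n = 3 each) and 1.98 CPM in WT.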

How the data were processed

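RNA from olfactory epithelium was sequenced after poly(A) capture, per the labels' protocols. The authors deposited raw read counts of genes, on GRCm38 (mm10), and the submitters' processing notes name Trimmomatic 0.35, STAR 2.5.1b, RSEM and DESeq2 1.18.1. The part of each tool is not given in those notes. TPM per gene and per transcript were deposited by the authors. The authors' deposited table gives log2 fold changes of KO over neo, p-values, and, as a score, a standard error, per the file headers. Their count table has 50600 genes; 4 summary rows that name no gene were left out of library sizes, and 14.5 to 19.6% of reads were multimapping, while 14.2 to 17.4% fell outside features, 0.666 to 0.865% in several and 3.32 to 4.38% were unmapped. The rRNA-overlapping gene Gm42418 held 9.83 to 16.5% of gene counts.

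Counts were tested with edgeR 4.0.16 in R 4.3.3 (TMM, filterByExpr with a minimum count of 10 and total of 15, robust quasi-likelihood fit, two-sided, Benjamini-Hochberg over all genes at 0.05). Neo over KO used 6 libraries and comparisons with WT all 7. SE came from the F statistic. Transcripts with a mean TPM of 0.5 or more were fitted with limma 3.58.1 on log2(TPM + 0.1). Centred log2 CPM used a prior count of 2. The fits were tested on simulated data. Other settings tried were RLE factors, TMM with no chemosensory receptor genes, no Gm42418, other count filters, DESeq2 1.42.0, other library sets, a replicate block, leaving out each library, and limma on TPM. All 45737 gene identifiers found in GENCODE vM21 had the same coordinates as in the files. RefSeq promoter entries were found for 4 of the 5 genes. Named genes were the 5 members, receptor genes within 500 kb, the nearest other gene on each side, the 3 genes most like each member and up to 2 per list with the smallest p, besides check genes. The members, lists and rules were chosen with earlier results of these data known. Separate animals per library are not stated in the labels, so the spread behind each p-value is that between libraries and may be technical. Every pair of libraries differed beyond sampling noise (chi-square over degrees of freedom of 8.96 or more). FPKM tables were not used here.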

Additional observations from a re-analysis of the deposited data

How the results depend on the processing

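Neo over KO kept its sign for each of the 5 genes in every setting tried, at -2.33 to -1.22 for Olfr1507, -1.79 to -1.10 for Olfr1508, -1.25 to -0.58 for Olfr1509, 0.10 to 0.58 for Olfr1510 and 0.23 to 1.02 for Olfr1511. Olfr1510 had no value at 50 counts in 3 libraries. The values nearest 0 for Olfr1508 and Olfr1509 came from limma on TPM, which gave -0.72 for Olfr1509 at a pseudocount of 0.1, and -1.10 for Olfr1508 and -0.58 for Olfr1509 at a pseudocount of 1. KO over WT turned sign for Olfr1507, Olfr1508 and Olfr1509, which lie within 1 SE of 0: with the replicate block at -0.87, -0.20 and -0.19, with limma at 0.1 at -0.24, -0.0056 and -0.18, and with limma at 1 at -0.21 for Olfr1507 and -0.14 for Olfr1509. Leaving out 1 library gave -0.58 to 0.38 for Olfr1507, -0.080 to 0.42 for Olfr1508 and -0.16 to 0.21 for Olfr1509, with the negative values without KO replicate 3 for Olfr1507 and without KO replicate 2 for the others. Neo over WT spanned -0.039 to 0.076 for Olfr1510 and -0.25 to 0.39 for Olfr1511 when 1 library was left out, and Olfr1511 was -0.079 with the replicate block.

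The number of genes called in neo over KO was 3, and it was 40 with no count filter, 1 at 50 counts in 3 libraries, 96 with DESeq2, 1 with the replicate block, 1 with limma on TPM at either pseudocount, and 1 to 17 with 1 library left out (17 without neo replicate 1, and 1 when KO replicate 2, KO replicate 3 or neo replicate 3 was left out). For KO over WT it was 1, and 2 with no filter, 6 in only the 2 groups compared, 15 with limma at a pseudocount of 1, and 1 to 4 with 1 library left out. For neo over WT it was 2, and 7 with no filter, 1 with the replicate block, 17 with limma at 1, and 2 to 6 with 1 library left out. Of transcripts, limma called 0 (2336 at an unadjusted p of 0.05), 1 at a pseudocount of 1, and 0 to 2 with 1 library left out. The causes were not tested. The share ratio of 0.349 kept between 0.287 and 0.428 in every setting. Same-numbered neo and KO libraries had correlations of their deviations of -0.10, -0.05 and 0.19, and not every library correlated best with its own number. Such weak correlations cannot show whether the numbers pair the samples. With 26 to 78 counts per KO or neo library, the depth limits Olfr1510 and Olfr1511, and 1 WT library limits every comparison with WT. By Xist and Ddx3y, that library also differs in sex from every KO library.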
